A study of Rattus norvegicus with 18 samples.

Results

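Glutamate acts on ion channels and on receptors that work through G proteins, and the genes described here belong to 2 of these families. They are the 5 kainate receptor genes Grik1, Grik2, Grik3, Grik4 and Grik5 and the 4 metabotropic glutamate (mGlu) receptor genes Grm3, Grm5, Grm7 and Grm8. They were chosen by name, as the rows of each deposited table whose gene name equals a member, which gave 9 of 31463 rows. RNA came from cortical neuroglial cultures of newborn rats, in which neurons grow among glial cells, on day 10 in vitro. The 18 libraries form 6 groups of 3. Control cultures received no glutamate. Glutamate cultures were exposed to 100 µM glutamate. Memantine cultures were exposed to glutamate together with 100 µM memantine, which blocks the channel of NMDA receptors. Glutamate_vesicles, Glutamate_secret and Glutamate_BPC cultures were given a preparation secreted by human glial progenitor cells on the day before glutamate, and these 3 groups are called the preparations here. Beyond the vesicles, the labels leave it unclear which name stands for the protein fraction and which for the whole secretome. RNA was taken 4 h after the glutamate model, so that all groups but Control share the glutamate exposure. Nothing in the labels says that the 3 libraries of a group came from separate animals or culture preparations, and p-values measure the spread between these libraries only.

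Kainate receptors are cation channels built from 4 subunits. The products of Grik1, Grik2 and Grik3 can form channels alone, while those of Grik4 and Grik5 bind glutamate with high affinity and need a partner from the first set. The mGlu receptors are divided into group I, which includes Grm5 and couples to Gq and calcium release, group II, which includes Grm3 and lowers cyclic AMP through Gi, and group III, which includes Grm7 and Grm8, also acts through Gi and sits mainly on presynaptic terminals. In the cortex, Grm7 and the kainate receptor genes are known chiefly from neurons, Grm3 is strongly expressed by astrocytes, and Grm5 is used by neurons and by young astrocytes.

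Library totals ranged from 8409574 to 17206354 counts, and the share of ribosomal RNA from 3.04% to 43.0%, the latter in Control 1. Levels are given as CPM, normalised read counts at a common library size after TMM scaling, and they are compared between libraries and never between genes, since transcript lengths were not used. Neuron markers (10 of 10 tested) summed to 2108 to 2812 CPM in Control, 602 to 1134 in Glutamate and 502 to 1089 over the 3 preparation groups. In Memantine 1 and Memantine 2 they reached 3341 and 2332 CPM, but in Memantine 3 only 655 CPM, within the range of the Glutamate libraries, and results on the Memantine group are therefore given with and without that library. Astrocyte markers (8 of 8 tested) summed to 2954 to 6399 CPM in Control and 5676 to 11335 CPM in Glutamate. Microglia markers were at 37.7 to 98.5 CPM in Control and 85.9 to 299 CPM in Glutamate. Endothelial markers did not exceed 3.92 CPM and fibroblast markers 18.7 CPM in any library. Tek, Flt1 and Cdh5 among the former, and Dcn and Lum among the latter, were without a count in 4 to 12 libraries each. In bulk RNA, fewer neurons and less RNA per neuron cannot be told apart.

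Among the kainate receptor genes, Grik1 and Grik2 separated Control from every group with glutamate and no memantine. Grik1, which encodes GluK1, stood at 6.28, 8.88 and 7.70 CPM in the 3 Control libraries and at 4.91, 2.29 and 1.85 CPM in Glutamate. It was at 2.09, 2.41 and 2.09 CPM in Glutamate_vesicles, 1.89, 1.02 and 2.35 CPM in Glutamate_secret, and 3.53, 2.71 and 2.28 CPM in Glutamate_BPC. All 12 of these libraries lay below the lowest Control library. Memantine 1 and 2, with 7.62 and 9.67 CPM, lay within or above the Control range, and Memantine 3, with 1.58 CPM, lay among the glutamate libraries. Ordered by mean, Control (7.62 ± 1.30 CPM, SD, n = 3) was followed by Memantine (6.29 ± 4.21), Glutamate (3.01 ± 1.66), Glutamate_BPC (2.84 ± 0.637), Glutamate_vesicles (2.20 ± 0.182) and Glutamate_secret (1.75 ± 0.678). Each group overlapped with its neighbours in this order.

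Grik2, the gene of GluK2, had a like profile. Its levels were 24.6, 30.1 and 28.0 CPM in Control and 14.2, 20.6 and 13.3 CPM in Glutamate. The preparation libraries ranged from 9.05 to 18.1 CPM, again all below Control. Memantine 1 and 2 reached 37.4 and 40.7 CPM, above every Control library, while Memantine 3 was at 13.3 CPM.

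Grik3, the gene of GluK3, was low and uneven within most groups. It was at 0.571, 2.99 and 3.23 CPM in Control, 0.129, 8.25 and 2.33 CPM in Glutamate and 0.644, 12.7 and 0.503 CPM in Memantine. Glutamate_vesicles 2 and Glutamate_secret 2 held 8.47 and 6.72 CPM, while their other libraries held 0.362 to 1.80 CPM and the 3 Glutamate_BPC libraries 0.325 to 1.56 CPM. The ranges of all 6 groups overlapped.

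The high-affinity subunit genes Grik4 (GluK4) and Grik5 (GluK5) overlapped between Control and Glutamate. Grik4 was at 14.0, 23.1 and 12.5 CPM in Control and at 14.6, 12.3 and 11.1 CPM in Glutamate. It ranged from 9.14 to 14.4 CPM in Glutamate_vesicles and Glutamate_BPC, and the 11.97, 8.89 and 7.78 CPM of Glutamate_secret lay just under Control. Grik5 was at 45.4, 89.1 and 93.6 CPM in Control, 74.4, 46.2 and 56.4 CPM in Glutamate and 46.0 to 78.9 CPM in the preparations. The lowest Grik5 value of all 18 libraries was that of Control 1, the library with the largest ribosomal share, and the highest, 166 CPM, was that of Memantine 1, which also had the most Grik4 (28.3 CPM).

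**Figure D1:**
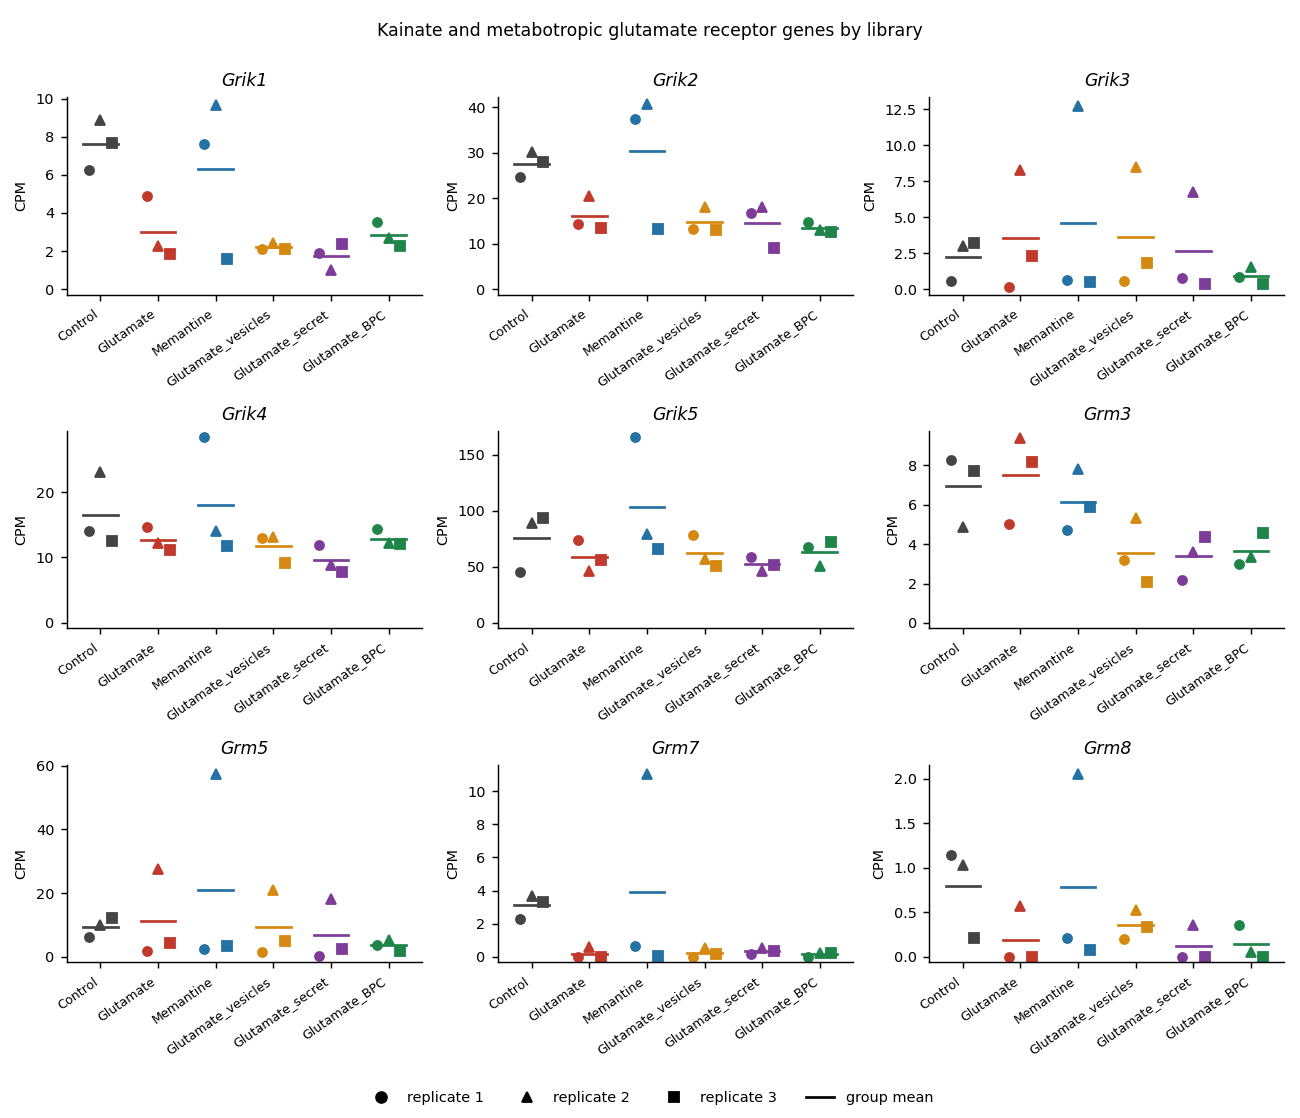
Level of each receptor gene in CPM (y axis, from 0) in the 18 libraries by group (x axis). Symbols mark the replicate number and lines the group mean. All 12 libraries with glutamate and no memantine lie below Control for Grik1, Grik2 and Grm7, and replicate 2 stands highest for Grm7 in all 6 groups.

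Of the metabotropic genes, Grm7 showed the largest contrast. Grm7, the gene of the presynaptic group III receptor mGlu7, was at 2.28, 3.68 and 3.34 CPM in Control, which rests on 8, 75 and 62 counts. In Glutamate it had 0, 9 and 0 counts, or 0, 0.571 and 0 CPM. The preparation libraries held 0 to 14 counts each, at most 0.562 CPM. A count of 0 allows up to 3 counts, or 0.387 CPM in Glutamate 1 and 0.292 CPM in Glutamate 3, for counting error alone, and both limits lie below the lowest Control value. Memantine was split into 0.644, 11.1 and 0.0719 CPM, and 199 of its 206 counts came from Memantine 2.

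Grm8, which encodes the related receptor mGlu8, had 113 counts in all libraries together and was too low to be tested. It was at 1.14, 1.03 and 0.215 CPM in Control and at 0, 0.571 and 0 CPM in Glutamate, and 5 of the 18 libraries had no count. Its highest value was 2.06 CPM in Memantine 2, and its groups overlapped.

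Grm5, the group I receptor gene, was at 6.28, 9.96 and 12.2 CPM in Control, 1.81, 27.4 and 4.38 CPM in Glutamate and 2.36, 57.5 and 3.31 CPM in Memantine. Replicate 2 was also far above the other libraries in Glutamate_vesicles (21.1 CPM against 1.60 and 5.05) and in Glutamate_secret (18.1 CPM against 0.158 and 2.35). Glutamate_BPC, at 3.62, 5.42 and 1.84 CPM, was the group whose 3 libraries all lay below Control.

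Grm3, the group II gene, followed another order. It was at 8.28, 4.86 and 7.70 CPM in Control, 5.04, 9.40 and 8.17 CPM in Glutamate and 4.72, 7.83 and 5.89 CPM in Memantine. In the preparations it was at 3.19, 5.34 and 2.09 CPM (Glutamate_vesicles), 2.21, 3.58 and 4.34 CPM (Glutamate_secret) and 2.99, 3.34 and 4.56 CPM (Glutamate_BPC). Control, Glutamate and Memantine overlapped, and of the 9 preparation libraries 1, Glutamate_vesicles 2, reached above the lowest Glutamate library.

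The DNA ahead of the genes is shown for Grik2 and Grm7, 2 of the 3 members that lay below Control in all 12 libraries. Promoter windows of 250 bases came from RefSeq on the build GRCr8, which differs from the build of the counts, and 8 of the 9 members had one. The Grik1 window lies wholly inside the annotated gene and is not printed. The Grik2 window is chr20:54415284-54415533 on the minus strand, and 238 bases of the Grm7 window, chr4:145286476-145286713 on the plus strand, lie ahead of the annotated gene. Both are written 5′ to 3′, with matches to the motifs named next in capitals.
Grik2: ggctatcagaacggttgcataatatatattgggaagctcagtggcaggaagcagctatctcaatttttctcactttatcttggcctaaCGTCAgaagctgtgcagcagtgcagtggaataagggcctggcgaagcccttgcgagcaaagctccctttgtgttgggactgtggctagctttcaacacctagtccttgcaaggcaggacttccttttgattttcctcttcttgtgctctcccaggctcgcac
Grm7: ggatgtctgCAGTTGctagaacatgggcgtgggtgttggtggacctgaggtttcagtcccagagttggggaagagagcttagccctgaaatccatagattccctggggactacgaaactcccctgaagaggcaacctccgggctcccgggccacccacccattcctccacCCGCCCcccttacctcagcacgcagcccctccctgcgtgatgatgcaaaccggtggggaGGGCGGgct
The 5 motifs searched on both strands were the AP-1 site TGANTCA, the cyclic AMP response element core TGACG, the GC box GGGCGG, the E-box CANNTG and the TATA box TATAAA. Grik2 held 1 such core, Grm7 held 2 GC boxes and 1 E-box, and Grik1 held 2 E-boxes, with no overlap between matches. These letters are common, since 18.2% of all 33469 windows held the core, 30.5% a GC box and 65.5% an E-box. No window of the 8 members held the AP-1 or TATA letters, which occurred in 6.34% and 12.9% of all windows. Like that of Grik1, the windows of Grik4, Grik5, Grm5 and Grm8 hold no base ahead of the annotated gene. The letters G and C made up 49.6% of the Grik2 window, 62.0% of the Grm7 window and 57.6% of the Grik1 window, and the median of all windows was 51.2%.

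Differences among the 6 groups were tested with the quasi-likelihood F test of edgeR over 14398 genes, with Benjamini-Hochberg adjustment. None of the 8 tested members passed an adjusted p of 0.05, as did 0.00695% of all genes. At an unadjusted p below 0.05 there were 4 members, against 7.75% of all genes, and these were Grik1 (adjusted p = 0.293), Grm7 (adjusted p = 0.320), Grik2 (adjusted p = 0.432) and Grm3 (adjusted p = 0.636). The likelihood-ratio test of edgeR called Grik1 (adjusted p = 0.0335) and Grm7 (adjusted p = 0.0234), and DESeq2 called the same genes with adjusted p of 0.0210 and 0.0309. How many of all genes the likelihood-ratio test and DESeq2 called among the 6 groups was not counted. Without Memantine 3, when Grm8 also entered the test, Grik1 (adjusted p = 0.0271) and Grik2 (adjusted p = 0.0438) passed the quasi-likelihood test, as did 3.41% of all genes, and Grm7 had an adjusted p of 0.0724. Memantine 3 was left out after its values were seen, so these p-values are no independent evidence.

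The comparison of Glutamate with Control asks what glutamate alone did. Grik1 and Grm7 were lower at an unadjusted p below 0.05 and a fold change above 1.5, which are 2 of 8 members against 5.97% of all genes. Grik1 was 2.55-fold lower (log2 fold change -1.35, SE 0.58) and Grm7 13.8-fold lower (log2 fold change -3.78, SE 1.55), and the Grm7 fold rests on 9 counts in Glutamate against 145 in Control. Grik2 had a mean 1.72-fold lower (log2 fold change -0.78, SE 0.39), short of the unadjusted criterion. Ranges lay apart, lower in Glutamate, for these 3 members, against 7.76% of all genes. Adjusted over all genes, p was 0.551 for Grik1, 0.501 for Grm7 and 0.677 for Grik2, and no member passed, as did 0% of all genes. DESeq2 and the likelihood-ratio test also called none of the members. Grik1 no longer met the unadjusted criterion without Control 2 (log2 fold change -1.22), Control 3 (-1.34), Glutamate 2 (-1.18) or Glutamate 3 (-1.09), nor did Grm7 without Glutamate 1 (-3.32) or Glutamate 3 (-3.26).

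The other tested members had smaller or less certain differences between Glutamate and Control. The log2 fold changes were -0.39 ± 0.38 (SE) for Grik4, -0.37 ± 0.38 for Grik5, 0.13 ± 0.44 for Grm3, 0.61 ± 1.39 for Grik3 and 0.24 ± 1.35 for Grm5, and adjusted p from 0.985 to 0.999. Over the 8 members the median was -0.38, and over all tested genes it was 0.08. The signs of Grik3 and Grm5 rest on Glutamate 2, as without it their log2 fold changes were -0.91 and -1.61. That of Grm3 was -0.060 without Glutamate 2 and -0.077 without Control 2.

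The preparation groups were also set against Control, whose libraries also served in the comparison before. In Glutamate_vesicles, 4 of 8 members were lower by the unadjusted criterion, against 7.59% of all genes, namely Grik1 (log2 fold change -1.79, SE 0.59, adjusted p = 0.236), Grm7 (-3.56, SE 1.49, adjusted p = 0.363), Grik2 (-0.91, SE 0.39, adjusted p = 0.385) and Grm3 (-0.96, SE 0.45, adjusted p = 0.422). Ranges were apart for 3 of them, all but Grm3, against 9.83% of all genes. None passed the adjustment, as did 0.0139% of all genes, and neither DESeq2 nor the likelihood-ratio test called any. Without Glutamate_vesicles 1 or Glutamate_vesicles 3 only Grik1 met the unadjusted criterion, and without Control 2 or Control 3 only 2 members did. With the replicate number as a block, Grm7 was the only member to pass (log2 fold change -4.36, adjusted p = 0.0422), as did 538 of 14398 genes. Libraries with the same number deviated together here (r of 0.60, 0.50 and 0.21), a hint of pairing that the labels do not settle.

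In Glutamate_secret, Grik1 (log2 fold change -2.15, SE 0.61), Grik2 (-0.91, SE 0.40, adjusted p = 0.379) and Grm3 (-1.03, SE 0.45, adjusted p = 0.385) were lower by the unadjusted criterion, against 7.58% of all genes. Ranges were apart for 5 members, with Grik4 (-0.80, SE 0.38, adjusted p = 0.432) and Grm7 (-3.04, SE 1.499, adjusted p = 0.453) beside those 3, against 9.07% of all genes. The adjusted p of Grik1 was 0.174 with edgeR's quasi-likelihood test, where 0% of all genes passed, and 0.0234 with DESeq2. DESeq2 called 436 genes in this comparison. It was given all 31463 rows, of which 20990 had a count, and how many it tested was not counted. Grik1 met the unadjusted criterion whichever library was left out, Grik2 did not without Control 2, Control 3 or Glutamate_secret 3, and Grm3 did not without Control 1, Control 3, Glutamate_secret 1 or Glutamate_secret 2.

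In Glutamate_BPC, the unadjusted criterion gave Grik2 (log2 fold change -1.04, SE 0.40, adjusted p = 0.339), Grm7 (-4.28, SE 1.61, adjusted p = 0.335) and Grik1 (-1.43, SE 0.58, adjusted p = 0.367), against 7.40% of all genes. Ranges were apart for 5 members, which adds Grm3 (-0.93, SE 0.45, adjusted p = 0.453) and Grm5 (-1.38, SE 1.38, adjusted p = 0.763), against 12.7% of all genes. None passed the adjustment, as for 0% of all genes, or was called by DESeq2 or the likelihood-ratio test. Grik1 and Grik2 missed the unadjusted criterion without Control 2, Glutamate_BPC 2 or Glutamate_BPC 3, and Grm7 without Glutamate_BPC 1.

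**Figure D2:**
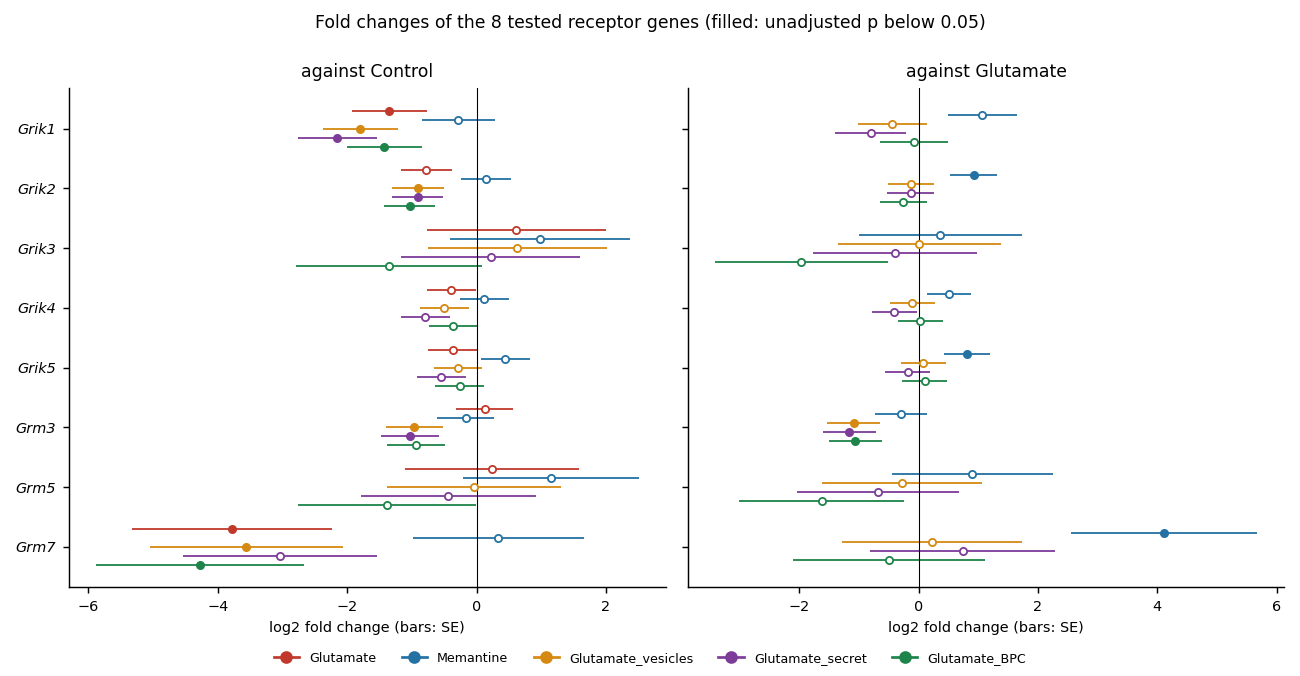
log2 fold change (x axis, bars ± SE) of the 8 tested members (y axis) against Control (left) and against Glutamate (right), coloured by group, with filled points where the unadjusted p was below 0.05. Grik1, Grik2 and Grm7 lie to the left of 0 against Control in the 4 groups with glutamate and no memantine, and Grm3 lies to the left of 0 against Glutamate in all 3 preparations.

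Since those 4 groups had like levels, they were also pooled, a comparison added after the values were seen, so that its p-values are no independent evidence. Over 12 libraries against 3, Grik1 fell by 1.68 on the log2 scale (SE 0.41, adjusted p = 0.0329 with edgeR's quasi-likelihood test), from a mean of 7.62 CPM to 2.45 CPM. Grm7 fell by 3.67 (SE 0.96, adjusted p = 0.0424), from 3.10 to 0.231 CPM. These are 2 of 8 members, against 3.96% of all genes in either direction. Grik2 differed by -0.91 (SE 0.29, adjusted p = 0.103). It passed with the replicate number as a block (adjusted p = 0.0165), with the ribosomal share as a covariate (adjusted p = 0.0278) and with only the compared libraries in the fit (adjusted p = 0.0373). More genes passed in these settings too, 1731 of 14398, 1554 of 14398 and 963 of 14200, against 570 of 14398 in the main fit. Ranges were apart for Grik1, Grm7 and Grik2, against 5.41% of all genes in that direction. Neither call outlasted the loss of a Control library, with an adjusted p for Grik1 of 0.0620 without Control 1, 0.193 without Control 2 and 0.0974 without Control 3, and for Grm7 of 0.0786, 0.184 and 0.109. Grik1 also lost its call without Glutamate 3, Glutamate_vesicles 1, Glutamate_vesicles 3, Glutamate_BPC 2 or Glutamate_BPC 3 (adjusted p from 0.0548 to 0.0656), and Grm7 without Glutamate 1, Glutamate 3, Glutamate_vesicles 1, Glutamate_vesicles 3 or any library of Glutamate_secret or Glutamate_BPC (adjusted p from 0.0535 to 0.0850). The remaining 5 members had adjusted p from 0.318 to 0.996. Neuron markers were lower in the same 12 libraries, with 10 of 10 below 0 (median log2 fold change -1.76) and 3 past the adjusted threshold. Oligodendrocyte lineage markers were higher in all 12, at 677 to 1397 CPM summed against 374 to 665 CPM in Control, with 7 of 7 above 0 (median log2 fold change 0.87), 3 of them by the unadjusted criterion and none past the adjusted threshold. Microglia markers also had 7 of 7 above 0 (median 1.20), 1 of them by the unadjusted criterion. The part of these cell classes in the results on Grik1, Grik2 and Grm7 was not tested.

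Memantine was compared with Glutamate and with Control. Against Glutamate, Grik2 (log2 fold change 0.92, SE 0.39), Grik5 (0.81, SE 0.38) and Grm7 (4.12, SE 1.56) were higher by the unadjusted criterion, 3 of 8 members against 4.86% of all genes. The ranges overlapped for each of them, and their adjusted p was 0.868, 0.970 and 0.680, with 0% of all genes past the threshold and no call by DESeq2 or the likelihood-ratio test. Single libraries carried 2 of these values, as without Memantine 1 that of Grik5 was 0.30 and without Memantine 2 that of Grm7 was 0.61. The criterion was also missed by Grik2 without Glutamate 1, Glutamate 3, Memantine 1 or Memantine 2, by Grik5 without Glutamate 2 or Glutamate 3, and by Grm7 without Glutamate 1 or Glutamate 3.

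Without Memantine 3, the 2 remaining libraries lay above all Glutamate libraries for Grik1 (log2 fold change 1.52, SE 0.48), Grik2 (1.27, SE 0.33), Grik5 (1.05, SE 0.39) and Grm7 (4.66, SE 1.42). These 4 met the unadjusted criterion, against 8.49% of all genes. Their adjusted p was 0.149, 0.0772, 0.226 and 0.134, while 1.73% of all genes passed. The summed neuron markers of the same libraries, 3341 and 2332 CPM, lay above all Glutamate libraries too, and their part in the result was not tested. For Grm7 the separation was narrow, at 0.644 CPM (6 counts) in Memantine 1 against 0.571 CPM (9 counts) in Glutamate 2. Its fold change rests on Memantine 2, with 199 counts, and Memantine 1 lay below every Control library. How many of all genes had ranges apart without Memantine 3 was not counted. That library was set aside after its values were seen, so the p-values without it are no independent evidence.

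Against Control, Memantine had no member at an unadjusted p below 0.05 or called by DESeq2 or the likelihood-ratio test, where 0.576% of all genes were higher and 0.542% lower by the same criterion, and none past the adjusted threshold, as for 0% of all genes. The log2 fold changes were -0.28 ± 0.57 (SE) for Grik1, 0.14 ± 0.39 for Grik2 and 0.34 ± 1.32 for Grm7. Without Memantine 3 they were 0.20 ± 0.48, 0.52 ± 0.34 and 0.92 ± 1.25. These errors leave room for differences of either sign. The 2 remaining Memantine libraries lay above Control for Grik2, and how many of all genes did so was not counted.

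Against Glutamate, Grm3 was the member lower by the unadjusted criterion in each preparation group. Its mean of 7.54 ± 2.25 CPM (SD, n = 3) in Glutamate compared with 3.54 ± 1.65 CPM in Glutamate_vesicles (log2 fold change -1.09, SE 0.45), 3.38 ± 1.08 CPM in Glutamate_secret (-1.16, SE 0.45) and 3.63 ± 0.822 CPM in Glutamate_BPC (-1.06, SE 0.45). No other member met the criterion in these 3 comparisons, where 0.597%, 0.361% and 0.667% of all genes were lower by that criterion. Ranges were apart in Glutamate_secret, against 2.01% of all genes, and in Glutamate_BPC, against 4.24%. The 3 comparisons share the Glutamate libraries. Adjusted p was 1.00 in all 3, with 0% of all genes past the threshold, and neither DESeq2 nor the likelihood-ratio test called the gene. Without Glutamate 2 it missed the unadjusted criterion in all 3 (log2 fold changes -0.90, -0.97 and -0.87). It also missed it without Glutamate 3, Glutamate_vesicles 1 or Glutamate_vesicles 3 in the first comparison, without Glutamate_secret 1 in the second, and without Glutamate 3, Glutamate_BPC 1 or Glutamate_BPC 2 in the third.

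With the 3 preparations together, also added after the values were seen, Grm3 had a log2 fold change of -1.10 (SE 0.34), against 0.917% of all genes lower by the unadjusted criterion, and an adjusted p of 1.00, with 0% of all genes past the threshold. Leaving out single libraries gave -1.32 to -0.91, always past the unadjusted criterion. Astrocyte markers, to which Grm3 is related as background, summed to 5676 to 11335 CPM in Glutamate, 3478 to 7107 CPM in Glutamate_vesicles, 5820 to 8924 CPM in Glutamate_secret and 7518 to 13235 CPM in Glutamate_BPC, so that the astrocyte sum overlapped between Glutamate and each preparation. Taken singly, most astrocyte markers had log2 fold changes below 0 against Glutamate, 7 of 8 in Glutamate_vesicles (median -0.51, 1 lower by the unadjusted criterion), 6 of 8 in Glutamate_secret (median -0.49) and 6 of 8 in Glutamate_BPC (median -0.32). In the pooled comparison 6 of 8 were below 0, with a median of -0.60 against -0.030 for all genes, and their part in the Grm3 result was not tested.

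Neuron markers were lower in the same 12 libraries in which Grik1, Grik2 and Grm7 lay below Control. Grm7 departed from the markers in Memantine 1, at 0.644 CPM beside the highest marker sum of all libraries, 3341 CPM. Each count was therefore also divided by the summed counts of the 10 neuron markers in its library. Per 1000 marker counts, Grik1 was at 2.41, 3.16 and 3.65 in Control and at 4.33, 3.80 and 2.94 in Glutamate. It ranged from 1.79 to 4.15 over the other 12 libraries, so that on this scale no group lay apart from Control. Grik2 averaged 11.1 ± 1.96 in Control and 22.6 ± 10.9 in Glutamate (SD, n = 3), with overlapping ranges. It also overlapped with Control in Glutamate_secret and Memantine, but lay apart above it in Glutamate_vesicles (1.84 times the Control mean) and Glutamate_BPC (1.52 times).

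Grik4 and Grik5 lay above Control in more groups on this scale, on which most genes lay higher in Glutamate than in Control. Grik4 was at 5.36, 8.22 and 5.93 per 1000 marker counts in Control and at 12.9, 20.4 and 17.6 in Glutamate, a ratio of means of 2.61. Grik5 was at 17.4, 31.7 and 44.4 in Control and at 65.6, 76.8 and 89.7 in Glutamate, a ratio of 2.48. Both lay apart from Control in each of the 4 groups with glutamate and no memantine. How many of all genes lay apart on this scale was not counted, so no separation here can be called particular to a member. Grm7 averaged 1.26 ± 0.357 in Control and 0.317 ± 0.548 in Glutamate, with overlapping ranges, and it lay apart below Control in Glutamate_vesicles (0.271 times the Control mean) and Glutamate_BPC (0.173 times). Grm3 lay apart above Control in Glutamate, at 3.86 times the Control mean, and overlapped with Control in the other groups.

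In the edgeR fit scaled in this way, the log2 fold change of all genes between Glutamate and Control had a median of 1.84. Against that shift, Grm3 (1.95), Grm5 (2.20) and Grik3 (2.59) lay above the median, Grik4 (1.38), Grik5 (1.31) and Grik2 (1.02) below it, and Grik1 (0.26) and Grm7 (-1.91) farthest below. No member had an adjusted p below 0.05 in this fit, the lowest being 0.0709 for Grm3.

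**Figure D3:**
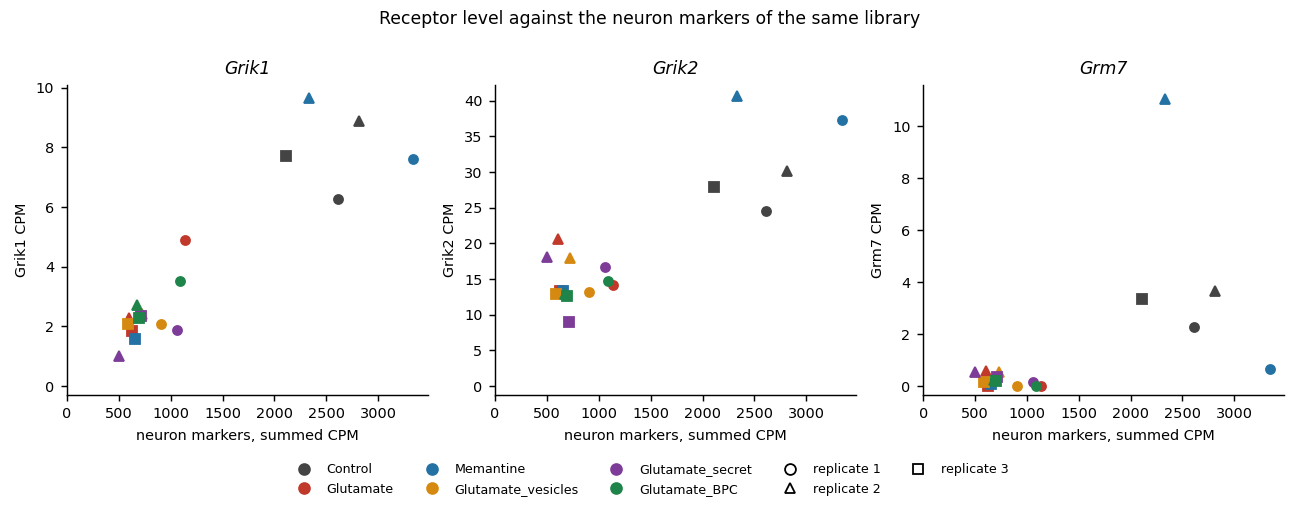
CPM of Grik1, Grik2 and Grm7 (y axes) against the summed CPM of the 10 neuron markers (x axis) in the 18 libraries, coloured by group. The libraries form a low cluster, at 502 to 1134 CPM of markers, and a high cluster of Control, Memantine 1 and Memantine 2, and Memantine 3 lies in the low cluster.

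**Figure D4:**
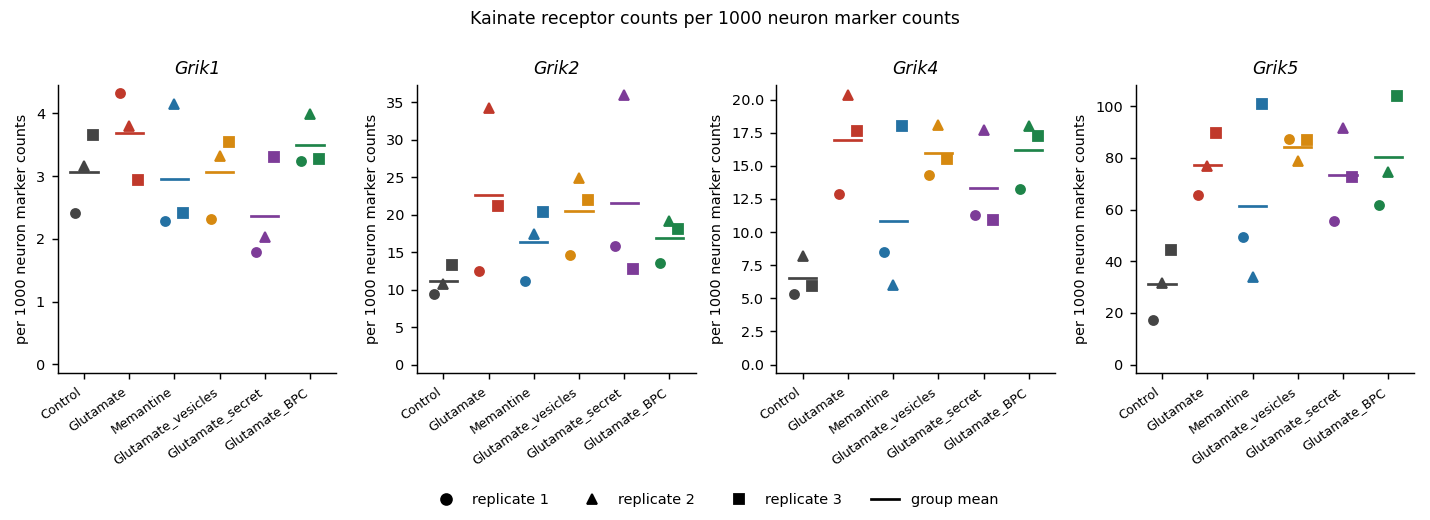
Counts of 4 kainate receptor genes per 1000 neuron marker counts (y axis, from 0) by group (x axis), with symbols for the replicate number and lines for the group mean. Grik1 overlaps between Control and all other groups, while Grik4 and Grik5 lie above Control in Glutamate and the 3 preparations. In the fit scaled by neuron markers, the median log2 fold change of all genes between Glutamate and Control was 1.84. Grik4 (1.38) and Grik5 (1.31) lay below it.

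Some members also varied with the replicate number. Grm7 was highest in replicate 2 in 6 of 6 groups, and Grm5 and Grik3 in 5 of 6, with Control 3 the exception for both. In each of the 6 groups, the library highest in Grm5 and Grik3 also had the lowest ribosomal share and the largest TMM factor. Control 3 was among them, with a share of 6.6% against 6.8% in Control 2 and 43.0% in Control 1. For Grm7 this held in all groups but Control. Replicate number and ribosomal share thus ran together, and their parts in the pattern were not tested. Mean Grm5 over the groups was 23.2 CPM in replicate 2 against 2.64 in replicate 1 and 4.85 in replicate 3. Grik4 and Grik5 were highest in replicate 1 in 4 of 6 groups. The paper's supplement names a day covariate, removed before the clustering plot of cultures without glutamate. It plots the groups with glutamate from batch-corrected counts. The labels do not say whether a number stands for a shared culture or day, and no source used here ties a day to a library.

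The members also fell into pairs by their profile over the 18 libraries, given here as a description of points that share treatment, depth and replicate number. Pearson's r of log2 CPM was 0.83 for Grik3 with Grm5, 0.81 for Grik2 with Grm7, 0.77 for Grik4 with Grik5 and 0.76 for Grik1 with Grik2. It was lowest, at -0.18, for Grik3 with Grik5. Outside the members, the profile nearest to Grik2 was that of Gabbr2 (r = 0.96), a subunit of the GABA-B receptor, followed by Agtpbp1 and Zfp536. Nearest to Grik1 were LOC100125362, Nell2 and Camk2b (r = 0.94 for each), and nearest to Grm7 were Gprasp2 (0.95), Dixdc1 (0.94) and Tbr1 (0.94), a transcription factor of cortical glutamatergic neurons. Grik4 lay nearest to Dis3l2 (0.91), Rbfox3 (0.90), itself a neuron marker, and Smap2 (0.90), and Grik5 to the unnamed transcript ENSRNOT00000112328 (0.95), Mllt1 (0.95) and Atat1 (0.94). Grm5 lay nearest to Fryl (0.98), Hivep1 (0.97) and Plekhm3 (0.96), and Grik3 to Rprd2, Specc1l and Nkrf (0.97 each). Grm3 had no close neighbour, with 0.81 for Zfp365 and 0.75 for Itih5.

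The receptors outside the member list and the proteins with which they work were followed as lists. Among the other mGlu genes, Grm6 was too low to be tested, and Grm2 and Grm4 were lower in Glutamate than in Control by the unadjusted criterion, as were 5.97% of all genes. Grm2, the other group II gene, averaged 2.69 CPM in Control and 0.816 CPM in Glutamate (log2 fold change -1.75, SE 0.58, adjusted p = 0.364). Grm4 averaged 7.68 and 1.93 CPM (-1.997, SE 0.85, adjusted p = 0.543).

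Of 8 partners of kainate receptors none met the unadjusted criterion in Glutamate against Control, and their median log2 fold change was -0.23. The smallest p belonged to C1ql3 (-0.98, SE 0.51, adjusted p = 0.708), a secreted synaptic organiser, Neto2 (-1.38, SE 0.87, adjusted p = 0.846), an auxiliary subunit, and Grip1 (-1.13, SE 0.73, adjusted p = 0.853), a scaffold protein. Of 15 genes for partners of mGlu receptors and for Gq signalling, 1 was lower and none was higher by the unadjusted criterion, and their median log2 fold change was -0.24. Ncdn (-1.83, SE 0.88, adjusted p = 0.634), whose product binds Grm5 protein, and Rgs4 (-2.57, SE 1.26, adjusted p = 0.649), a regulator of Gq and Gi, were short of it. Of 10 genes of Gi and Go signalling, 2 were lower by this criterion, which 5.97% of all genes met, Gnb5 (-0.96, SE 0.36, adjusted p = 0.445) and the adenylyl cyclase gene Adcy1 (-2.33, SE 0.88, adjusted p = 0.449), which averaged 201 CPM in Control and 39.9 CPM in Glutamate, and the third by p was Adcy5 (-1.19, SE 0.77, adjusted p = 0.859). None of these genes passed the adjustment over all genes in this comparison.

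In the pooled comparison of 12 libraries with Control, 2 of the genes of these lists passed the adjustment, where 3.96% of all genes did. Grm2 averaged 0.585 CPM against 2.69 CPM in Control and fell by 2.27 on the log2 scale (SE 0.40, adjusted p = 0.00973 with edgeR). Adcy1, which makes the cyclic AMP that Gi-coupled receptors lower, averaged 33.9 CPM against 201 CPM and fell by 2.60 (SE 0.58, adjusted p = 0.0211). Against Glutamate, Memantine had 2 of the 15 genes for mGlu partners and Gq signalling and 1 of the 10 for Gi and Go signalling higher by the unadjusted criterion, and none of the kainate receptor partners or other mGlu genes, against 4.86% of all genes. In each preparation against Glutamate, none of the genes of the 4 lists met that criterion or passed the adjustment.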

How the data were processed

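The data were 18 tables of expected counts, which the authors deposited as 1 table per library. According to the study's methods, reads were trimmed with Trimmomatic and Cutadapt, quantified with Salmon on rat transcripts, the genome serving as decoy, and summed to genes with tximport. The submitters' processing notes name STAR, Salmon and the build rn6, and versions of both tools are not given in the sources used here. Labels and methods differ on the library kit and the instrument.

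Expected counts were rounded, filtered (filterByExpr, minimum count 10, minimum total 15) and scaled by TMM. All 18 libraries entered 1 fit of edgeR 4.0.16 in R 4.3.3, tested by quasi-likelihood, two-sided, with Benjamini-Hochberg adjustment over 14398 genes at 0.05. The unadjusted criterion was p below 0.05 with a fold change above 1.5. SE is the log2 fold change divided by the root of F. Ranges were called apart where group CPM did not overlap. Log2 CPM used a prior count of 2. DESeq2 1.42.0 and other settings served as alternatives. The functions were tested on simulated data whose spread was not taken from these libraries, which checks the code only. Of 88 listed genes 87 were in the files, all but Cldn5.

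The members and lists were chosen with earlier results of these data known. Every member is named. Fold changes are given for all tested members in Glutamate against Control and elsewhere at an unadjusted p below 0.05 or with ranges apart, with up to 3 genes of smallest p per pathway list and the 3 most correlated genes per member whose mean log2 CPM reached 1. A few genes that this rule names are not reported here. Libraries with the same replicate number deviated together (every r over 0.1) in Memantine, Glutamate_secret and Glutamate_BPC against Glutamate and in Glutamate_vesicles against Control, as a hint from the data. Libraries of a group differed by far more than sampling noise.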

Additional observations from a re-analysis of the deposited data

How the results depend on the processing

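Counts of members past the adjusted threshold moved as follows. Among the 6 groups the count of 0 became 2 with the likelihood-ratio test, 2 with DESeq2, 1 with the replicate block (Grm7, adjusted p = 0.0280) and 0 to 2 when single libraries were left out, the 2 without Memantine 3. For the 6 groups, all genes called with these tests and with the block were not counted. For Glutamate_secret against Control the count of 0 became 1 with DESeq2, 1 with the replicate block and 1 with the rRNA covariate, each time Grik1 (adjusted p 0.0234, 0.0417 and 0.0489), and for Glutamate_vesicles against Control 1 with the replicate block. Of all genes, DESeq2 called 436, the block 700 and the covariate 581 in the former, and the block 538 in the latter. For Glutamate and the preparations together against Control, the count of 2 ranged from 0 to 2 over the libraries left out. It was 0 without any of the 3 Control libraries, Glutamate 3, Glutamate_vesicles 1, Glutamate_vesicles 3, Glutamate_BPC 2 or Glutamate_BPC 3, and 1 without Glutamate 1, Glutamate_secret 1, Glutamate_secret 2, Glutamate_secret 3 or Glutamate_BPC 1. Grik2 passed there with the replicate block, the rRNA covariate and only the libraries compared (adjusted p 0.0165, 0.0278 and 0.0373). Among all genes, 1731 of 14398, 1554 of 14398 and 963 of 14200 passed in these settings.

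Counts by the unadjusted criterion were less steady. With only the libraries compared, those against Glutamate fell from 3 to 0 for Memantine, from 1 to 0 for Glutamate_vesicles and from 1 to 0 for Glutamate_secret. All genes meeting the criterion then numbered 202 of 13246, 254 of 13418 and 44 of 12998. In the main fit they were 700 higher and 29 lower, 69 and 86, and 45 and 52, of 14398. With no filter on low counts, Glutamate_vesicles against Control gave 2 and Glutamate_secret against Control 1, where all genes gave 1765 and 1810 of 20990. Glutamate_secret against Control gave 5 with DESeq2, 6 with the replicate block and 5 with the rRNA covariate. All genes rose too, to 2238 with DESeq2, 3181 of 14398 with the block and 3593 of 14398 with the covariate. The main fit had 591 higher and 1092 lower. The rRNA covariate gave 2 for Glutamate_BPC against Glutamate and 2 for the 3 preparations together against Glutamate, and the replicate block gave 5 for the 4 groups together against Control. Of all 14398 genes, 534, 1374 and 3485 met the criterion in these 3 cases. In the main fit they were 57 higher and 96 lower, 61 and 132, and 665 and 1613. Over libraries left out, the counts against Control ranged from 0 to 3 for Glutamate (0 without Glutamate 3, and 1 without Control 2, Control 3 or Glutamate 1), from 0 to 1 for Memantine (1 without Memantine 2), from 1 to 4 for Glutamate_vesicles (1 without Glutamate_vesicles 1 or 3, and 2 without Control 2 or 3), from 2 to 4 for Glutamate_secret and from 1 to 3 for Glutamate_BPC (1 without Glutamate_BPC 2 or 3). Against Glutamate they ranged from 0 to 4 for Memantine (0 without Glutamate 3, and 1 without Memantine 1 or 2) and from 0 to 1 for each preparation, always 0 without Glutamate 2. Counts of all genes moved widely as well over the libraries left out. In Glutamate against Control they ranged from 729 to 1186, and in Memantine against Glutamate from 416 to 1976. In the preparations against Glutamate they ranged from 51 to 187 (Glutamate_vesicles), 61 to 957 (Glutamate_secret) and 89 to 232 (Glutamate_BPC). The cause was not tested.

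Directions turned for members near 0 in Glutamate against Control. With the replicate block Grik3 was at -0.14 and Grm5 at -0.88, with the rRNA covariate Grm5 was at -0.21, and over single libraries left out Grik3 ranged from -0.91 to 1.17 and Grm5 from -1.61 to 0.74, both lowest without Glutamate 2, and Grm3 from -0.077 (without Control 2) to 0.35. Neuron marker scaling, which moved the median of all genes by 1.84, gave 0.26 for Grik1, 1.02 for Grik2, 1.38 for Grik4 and 1.31 for Grik5. For the 4 groups together against Control, Grik3 (0.026) was at -0.57 with the replicate block, -0.020 with the rRNA covariate, and between -0.53 and 0.33 over libraries left out. The replicate block changed no other call. Where libraries with the same number did not all deviate together it is a setting and no pairing, and elsewhere pairing is only a hint from the data. Depth limits Grm7 and Grm8 most, with 398 and 113 counts in all libraries.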
